A study of Homo sapiens with 12 samples.

Results

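TRAIL (gene TNFSF10), its 4 cell-surface receptors (TNFRSF10A, TNFRSF10B, TNFRSF10C and TNFRSF10D), the related death receptor FAS, and CASP8 and CFLAR, which act directly below these receptors, were followed on Illumina HT-12 expression arrays of breast cancer cells. The 8 genes were chosen because TNFSF10 had been seen to be lost in the knockdown line, so the difference between the lines is described for them and not tested. The platform annotation gave them 13 of the 47302 probes on the array. Of these, 9 probes of 6 genes met the detection criterion (a group with both of its arrays detected) and were tested, among 16819 tested probes of 12336 genes. The probes of FAS and TNFRSF10C and 2 of the 4 CASP8 probes did not reach that level.

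All cells were LM, which derives from lung metastases of MDA-MB-231, an established line of human triple-negative breast cancer. BHLHE40-KD cells carried a short hairpin RNA against BHLHE40, a hypoxia-induced transcription regulator. LM-EV cells carried the control vector. Both lines were grown in puromycin and were measured untreated (0 h) and after 6 h and 48 h of hypoxia with 1% O2. The sample labels combine hypoxia with low glucose, given as 1 mg/ml in the study's cell culture methods. For these arrays the methods name only 1% O2. The sole reference was untreated cells at 0 h, so low oxygen, low glucose and time in culture cannot be told apart. Hypoxia below stands for this treatment as a whole. Each of the 6 groups had 2 arrays, 1 on each of 2 slides. There was 1 knockdown line, made with 1 hairpin, and 1 control line, per the study's methods a pool of drug-resistant colonies. The arrays therefore compare these lines. RNA was taken from whole cultures, in which fewer cells with a transcript and less transcript per cell cannot be told apart.

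TRAIL is a ligand of the TNF superfamily that can trigger apoptosis, often more readily in tumor cells than in normal cells. It binds the death receptors DR4 (TNFRSF10A) and DR5 (TNFRSF10B), whose cytoplasmic death domain recruits the adaptor FADD and the initiator caspase CASP8. The decoy receptors DcR1 (TNFRSF10C) and DcR2 (TNFRSF10D) bind the ligand but lack a working death domain, and CFLAR, known as c-FLIP, competes with CASP8 at the receptor complex. FAS uses the same adaptor and caspase with another ligand, FASLG. In MDA-MB-231 cells TRAIL is known to induce apoptosis through DR5.

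The arrays detected 20298 to 21830 probes each, at a detection p under 0.05 against negative control beads. Detection began at a signal of 42.2 to 51.8 in the authors' normalized units. BHLHE40, the target of the hairpin, had signals of 1771 and 1444 in BHLHE40-KD cells and 2992 and 2716 in LM-EV cells at 0 h. At 6 h they were 3410 and 4324 in BHLHE40-KD cells and 4283 and 6795 in LM-EV cells. At 48 h they were 3199 and 3585 in BHLHE40-KD cells and 3365 and 6482 in LM-EV cells. Within a slide BHLHE40-KD always had less BHLHE40 signal, but across slides the lines overlapped at 6 h and 48 h. No difference passed the threshold of an adjusted p under 0.05 (adjusted p = 0.0982 at 0 h, 0.298 at 6 h and 0.333 at 48 h, limma). The markers listed as high in this line, VIM, CD44, AXL, CAV1 and EGFR, were detected on all 12 arrays. CD44 ran from 17493 to 24078 in BHLHE40-KD and from 34313 to 44522 in LM-EV cells. VIM, AXL, CAV1 and EGFR overlapped between the lines. The summed signal of these markers ran from 128141 to 149631 in BHLHE40-KD and from 158827 to 185224 in LM-EV cells. ESR1, PGR and CDH1 were detected on 1, 0 and 2 arrays. EPCAM and ERBB2, listed with them as low or absent in this line, were detected on all 12 arrays, EPCAM at 2681 to 3650 in BHLHE40-KD and 1556 to 2503 in LM-EV cells. Of 8 markers of leukocytes, endothelium, fibroblasts and platelets, CD68 and PECAM1 were detected on all arrays, PTPRC on 1, and CD3E, CDH5, PDGFRA, COL3A1 and PF4 on none. The summed signal of these 8 ran from 16429 to 25779 in BHLHE40-KD and from 11321 to 20687 in LM-EV cells. Most of this sum was CD68, which ran from 15949 to 25041 in BHLHE40-KD and from 11003 to 20230 in LM-EV cells. PECAM1 ran from 409.5 to 778.7 in BHLHE40-KD and from 214.3 to 406.7 in LM-EV cells. The part of these markers in the differences below was not tested.

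The promoter of TNFSF10 is shown because it is the gene on which the set was selected and the one with the largest difference between the lines among the members tested. The window holds 250 bases before and 50 after the annotated start, from RefSeq on GRCh38.p14, chr3:172523381-172523680 on the minus strand, printed 5′ to 3′ in the direction of transcription. Capitals mark matches to GAAANNGAA, the core of the element bound by interferon regulatory factors, which is read here on the opposite strand:
TNFSF10 promoter: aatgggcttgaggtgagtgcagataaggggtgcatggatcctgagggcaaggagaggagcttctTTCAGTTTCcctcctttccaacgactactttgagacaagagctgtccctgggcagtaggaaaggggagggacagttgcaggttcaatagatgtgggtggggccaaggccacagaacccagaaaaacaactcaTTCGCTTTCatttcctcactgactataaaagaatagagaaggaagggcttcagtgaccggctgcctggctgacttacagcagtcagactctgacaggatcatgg

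Both matches start upstream of the annotated start of TNFSF10, at -186 and -54. Both strands were searched, and GAAANNGAA was found in 8.11% of 35116 promoter windows of this length. Among the other members it also occurred in a window of CASP8 (at -2) and in a window of CFLAR (at -111). The class B E-box CACGTG, the site bound by BHLHE40 and related factors, was not found in the TNFSF10 window and occurred in 7.26% of all windows. The windows of CASP8, CFLAR and FAS did not hold it either. The hypoxia response core ACGTG, which is also part of CACGTG, was not found in the TNFSF10 window (21.4% of all windows), nor was its form GCGTG (36.5%). Windows of the TRAIL receptor genes were not at hand. A match describes the letters of the window and is not a measured binding site.

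TNFSF10, the ligand, gave far less signal in BHLHE40-KD cells than in LM-EV cells at every time. At 0 h its probe (ILMN_1801307) gave signals of 129 and 123 in BHLHE40-KD cells and 652 and 592 in LM-EV cells. After 6 h they were 22.2 and 32.4 in BHLHE40-KD cells, not detected on either array, and 324 and 392 in LM-EV cells. After 48 h they were 35.0 and 22.5 in BHLHE40-KD cells, again not detected, and 319 and 579 in LM-EV cells. The lines did not overlap at any time: the highest BHLHE40-KD signal of all 6 arrays, 129, lay below the lowest LM-EV signal, 319.

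At 0 h TNFSF10 was 4.92-fold lower in BHLHE40-KD cells, a log2 difference of -2.30 (SE 0.33) that was -2.33 on slide 1 and -2.26 on slide 2. Where a probe was not detected on both arrays of a group, only a bound can be given, against the lowest signal detected on those arrays. In these terms TNFSF10 was at least 7.16-fold lower in BHLHE40-KD cells at 6 h and at least 9.14-fold lower at 48 h. These are the values that chose the gene and carry no test. Within BHLHE40-KD cells, TNFSF10 was at least 2.54-fold lower after 6 h and at least 2.69-fold lower after 48 h than at 0 h. These values come from the arrays that showed the loss and are likewise given without a test. The choice did not use the hypoxia comparison in LM-EV cells, though their arrays were part of the difference between the lines. In LM-EV cells the signal averaged 358 ± 48.4 at 6 h, against 622 ± 42.6 at 0 h (SD, n = 2 arrays). This difference of -0.80 (SE 0.33, adjusted p = 0.279, limma) did not pass the threshold. At 48 h slide 1 gave -1.03 and slide 2 gave -0.03, and their fitted difference of -0.53 did not pass (SE 0.33, adjusted p = 0.421). Ordered by level, LM-EV at 0 h came first, then LM-EV at 48 h and 6 h, whose arrays overlapped, then BHLHE40-KD at 0 h. The BHLHE40-KD groups in hypoxia came last and have no order below detection.

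**Figure D1:**
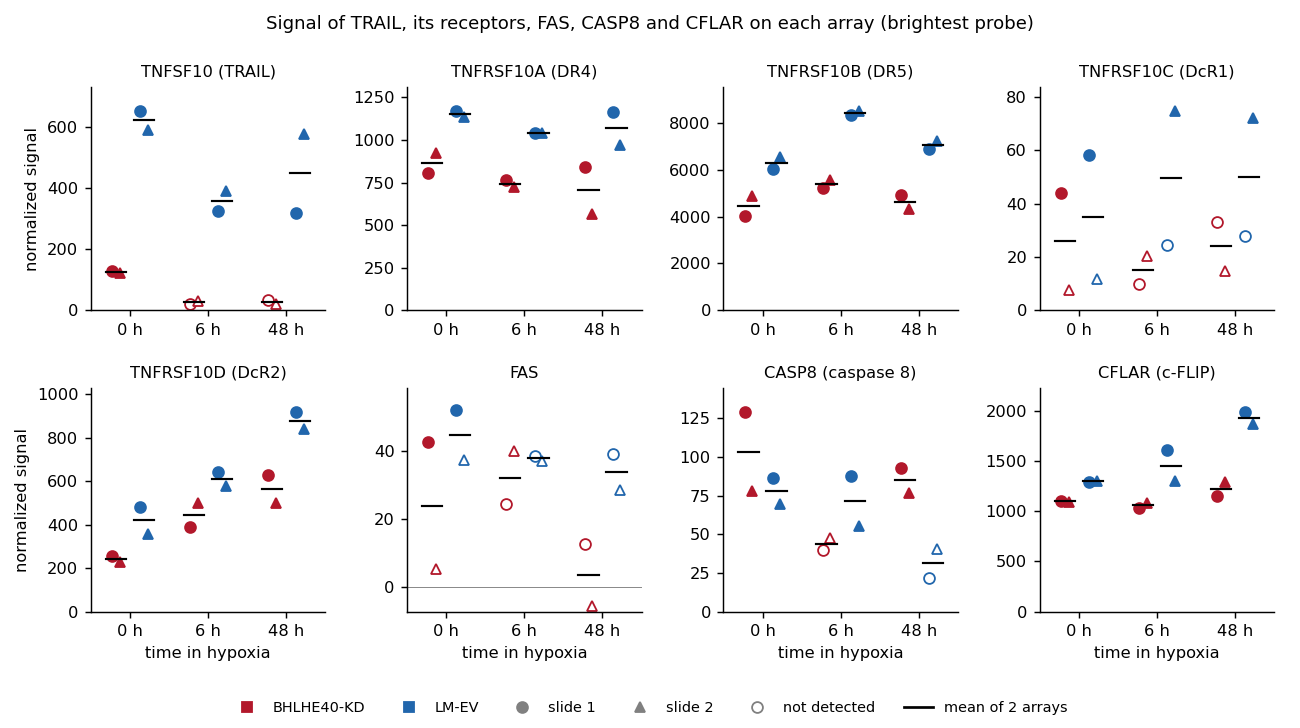
Normalized signal (y axis, arbitrary linear units) of the brightest probe of each of the 8 genes at 0 h, 6 h and 48 h of hypoxia (x axis), with BHLHE40-KD in red on the left and LM-EV in blue on the right of each time; circles are slide 1, triangles slide 2, open symbols arrays without detection and bars the mean of 2 arrays. TNFSF10 lies at or below 129 on all 6 BHLHE40-KD arrays and at or above 319 on all 6 LM-EV arrays, and FAS and TNFRSF10C are mostly not detected.

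The death receptors were expressed in both lines, at lower signals in BHLHE40-KD cells. TNFRSF10A, the receptor DR4 (ILMN_1721316), had signals of 803 and 922 in BHLHE40-KD cells and 1169 and 1137 in LM-EV cells at 0 h. At 6 h the signals were 765 and 723 in BHLHE40-KD cells and 1039 on both LM-EV arrays. At 48 h they were 841 and 568 in BHLHE40-KD cells and 1166 and 968 in LM-EV cells. Every BHLHE40-KD array lay below both LM-EV arrays of its time, by a fitted log2 difference of -0.42 at 0 h, -0.48 at 6 h and -0.62 at 48 h (SE 0.19 each). Hypoxia moved TNFRSF10A by -0.21 and -0.32 at 6 h and 48 h in BHLHE40-KD cells and by -0.15 and -0.12 in LM-EV cells, each within 2 SE of 0 (adjusted p = 0.592, 0.364, 0.745 and 0.786).

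TNFRSF10B, the receptor DR5, was read by 3 probes. The brightest (ILMN_1699265) had signals of 4018 and 4861 in BHLHE40-KD cells and 6007 and 6530 in LM-EV cells at 0 h. Hypoxia for 6 h gave 5206 and 5542 in BHLHE40-KD cells and 8319 and 8484 in LM-EV cells, and 48 h gave 4930 and 4317 in BHLHE40-KD cells and 6878 and 7220 in LM-EV cells. The lines were separated at each time, and in both lines the highest mean was that at 6 h. The log2 difference between the lines was -0.50 at 0 h, -0.65 at 6 h and -0.61 at 48 h (SE 0.14 each). After 6 h of hypoxia this probe stood 0.28 above 0 h in BHLHE40-KD cells (adjusted p = 0.304) and 0.42 above 0 h in LM-EV cells (SE 0.14 each, adjusted p = 0.192, limma), neither past the threshold, although all arrays at 6 h were above those at 0 h in each line.

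A pair of further probes read TNFRSF10B. One (ILMN_2331010), which the annotation assigns to another transcript of the gene, was detected on all 12 arrays. It had 68.3 and 97.8 in BHLHE40-KD cells and 112 and 142 in LM-EV cells at 0 h. It had 77.7 and 115 in BHLHE40-KD cells and 195 and 267 in LM-EV cells at 6 h, and 123 and 129 in BHLHE40-KD cells and 154 and 231 in LM-EV cells at 48 h. Its difference between the lines was -0.63, -1.27 and -0.58 at 0 h, 6 h and 48 h (SE 0.15 each), so that it was widest at 6 h, where the slides gave -1.32 and -1.22. In LM-EV cells it stood 0.85 above 0 h at 6 h (adjusted p = 0.0741), and in BHLHE40-KD cells 0.62 above 0 h at 48 h (adjusted p = 0.07). With signals under 64 set to 64 instead of 16, both of these passed the threshold (adjusted p = 0.0437 and 0.0452). The other (ILMN_1812915) was detected on 7 of 12 arrays at 10.6 to 113, and its SE of 0.69 left no change resolved.

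The decoy receptors differed in whether they were detected. TNFRSF10D, the decoy DcR2 (ILMN_1666022), had signals of 255 and 228 in BHLHE40-KD cells and 479 and 359 in LM-EV cells at 0 h. These became 391 and 498 in BHLHE40-KD cells and 643 and 577 in LM-EV cells at 6 h, and 628 and 501 in BHLHE40-KD cells and 916 and 840 in LM-EV cells at 48 h. Within each line the arrays at 6 h and 48 h all lay above those at 0 h, and BHLHE40-KD lay below LM-EV at each time (log2 difference -0.78, -0.47 and -0.64, SE 0.19 each). In BHLHE40-KD cells TNFRSF10D rose by 0.87 at 6 h (SE 0.19, adjusted p = 0.0495) and by 1.22 at 48 h (SE 0.19, adjusted p = 0.0235). Among the 8 tested probes of members other than TNFSF10 it was the sole one past the threshold in hypoxia. In LM-EV cells the difference was 0.56 at 6 h (adjusted p = 0.206) and 1.08 at 48 h (SE 0.19, adjusted p = 0.0513).

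The TNFRSF10D calls depended on single arrays and on the filter. The 6 h call in BHLHE40-KD cells was lost without any 1 of the 12 arrays (adjusted p = 0.0629 to 0.2) and without the slide term (0.0779), and the 48 h call without either BHLHE40-KD array at 0 h or at 48 h (0.0765 to 0.109). Both were lost with no filter on dim probes (adjusted p = 0.105 and 0.0549). The 48 h difference in LM-EV cells passed with the floor of 64 (adjusted p = 0.036) and with 1 probe per gene (0.0432). TNFRSF10C, the decoy DcR1 (ILMN_1672114), was detected on 4 of 12 arrays. Its signals were 44.2 and 7.6 in BHLHE40-KD cells and 58.4 and 11.9 in LM-EV cells at 0 h. Later signals were 10.0 and 20.3 in BHLHE40-KD cells and 24.7 and 74.7 in LM-EV cells at 6 h, and 33.3 and 14.7 in BHLHE40-KD cells and 27.8 and 72.2 in LM-EV cells at 48 h. The probe was detected on 1 of 2 arrays of both lines at 0 h and of LM-EV cells at 6 h and 48 h, and on neither BHLHE40-KD array in hypoxia, and no difference was tested at this signal. In the RefSeq annotation the 4 receptor genes are direct neighbors among protein-coding genes, in the order TNFRSF10B, TNFRSF10C, TNFRSF10D and TNFRSF10A.

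FAS, which shares FADD and CASP8 with the TRAIL receptors, was barely detected. Its 1 probe (ILMN_1808132) passed detection on 2 of 12 arrays, both on slide 1 at 0 h, with signals of 42.7 and 5.1 in BHLHE40-KD cells and 52.1 and 37.3 in LM-EV cells. At 6 h it had 24.3 and 40.0 in BHLHE40-KD cells and 38.6 and 36.9 in LM-EV cells. At 48 h it had 12.6 and -5.6 in BHLHE40-KD cells and 39.0 and 28.5 in LM-EV cells. These signals are at or under the lowest detected level of their arrays, apart from the 2 detected values, and give no fold. The annotation assigns the probe to 1 transcript of FAS, and other transcripts were not measured here.

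CASP8, the initiator caspase of the pathway, was near the detection level on 2 probes and not detected on any array by the other 2 (ILMN_1787749 and ILMN_1809313). The first detected probe (ILMN_1673757) had signals of 129 and 77.9 in BHLHE40-KD cells and 86.1 and 69.5 in LM-EV cells at 0 h. Its later signals were 39.9 and 47.3 (not detected) in BHLHE40-KD cells and 87.5 and 55.2 in LM-EV cells at 6 h, and 93.2 and 77.0 in BHLHE40-KD cells and 21.9 and 40.3 (not detected) in LM-EV cells at 48 h. The second (ILMN_2377733) had 106 and 116 in BHLHE40-KD cells and 89.4 and 68.6 in LM-EV cells at 0 h. It then had 27.1 and 8.4 (not detected) in BHLHE40-KD cells and 18.1 (not detected) and 75.6 in LM-EV cells at 6 h, and 83.1 and 80.8 in BHLHE40-KD cells and 27.5 (not detected) and 67.0 in LM-EV cells at 48 h. Both probes were thus undetected on both BHLHE40-KD arrays at 6 h and detected there at 0 h and 48 h.

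By the first CASP8 probe, BHLHE40-KD cells at 6 h were at least 2.01-fold lower than at 0 h (adjusted p = 0.122), and by the second at least 2.23-fold lower (adjusted p = 0.0823, limma). In LM-EV cells the first probe was at least 1.61-fold lower at 48 h than at 0 h (adjusted p = 0.11), and the second gave -0.87 (SE 0.63, adjusted p = 0.502). None of these passed the threshold, but with signals under 64 set to 64 the 6 h difference of the second probe (ILMN_2377733) in BHLHE40-KD cells did (log2 -0.80, adjusted p = 0.0308). At 48 h CASP8 stood higher in BHLHE40-KD than in LM-EV cells on both slides by both probes, at least 1.76-fold by the first. The other tested members were lower in BHLHE40-KD cells at that time.

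CFLAR, the inhibitor that competes with CASP8, was detected on all 12 arrays by its 1 probe (ILMN_1789830). It had 1105 and 1099 in BHLHE40-KD cells and 1294 and 1309 in LM-EV cells at 0 h. Signals in hypoxia were 1036 and 1089 in BHLHE40-KD cells and 1612 and 1305 in LM-EV cells at 6 h, and 1155 and 1292 in BHLHE40-KD cells and 1990 and 1878 in LM-EV cells at 48 h. BHLHE40-KD lay below LM-EV at each time without overlap, by -0.24, -0.45 and -0.66 on the log2 scale (SE 0.14 each). At 48 h of hypoxia CFLAR stood 0.15 above 0 h in BHLHE40-KD cells (adjusted p = 0.59) and 0.57 above 0 h in LM-EV cells (SE 0.14 each, adjusted p = 0.0957), neither past the threshold. The difference between these changes was -0.42 (SE 0.20, adjusted p = 0.803). CFLAR, CASP10 and CASP8 are also direct protein-coding neighbors in that annotation.

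Between the lines, most member probes were lower in BHLHE40-KD cells. Both BHLHE40-KD arrays lay below both LM-EV arrays for 7 of the 9 tested probes at 0 h, for 8 at 6 h and for 6 at 48 h, which held for 26.2%, 28.5% and 26.2% of all tested probes at these times. The median log2 difference over the member probes was -0.50, -0.68 and -0.61 at 0 h, 6 h and 48 h, beside 0.01, 0.01 and 0.02 over all tested probes. In the limma fit 4, 3 and 5 of the 9 member probes were past an adjusted p of 0.05, beside 15.9%, 16.7% and 14.8% of all tested probes. The set was chosen on this comparison, so nothing is read from these counts.

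**Figure D2:**
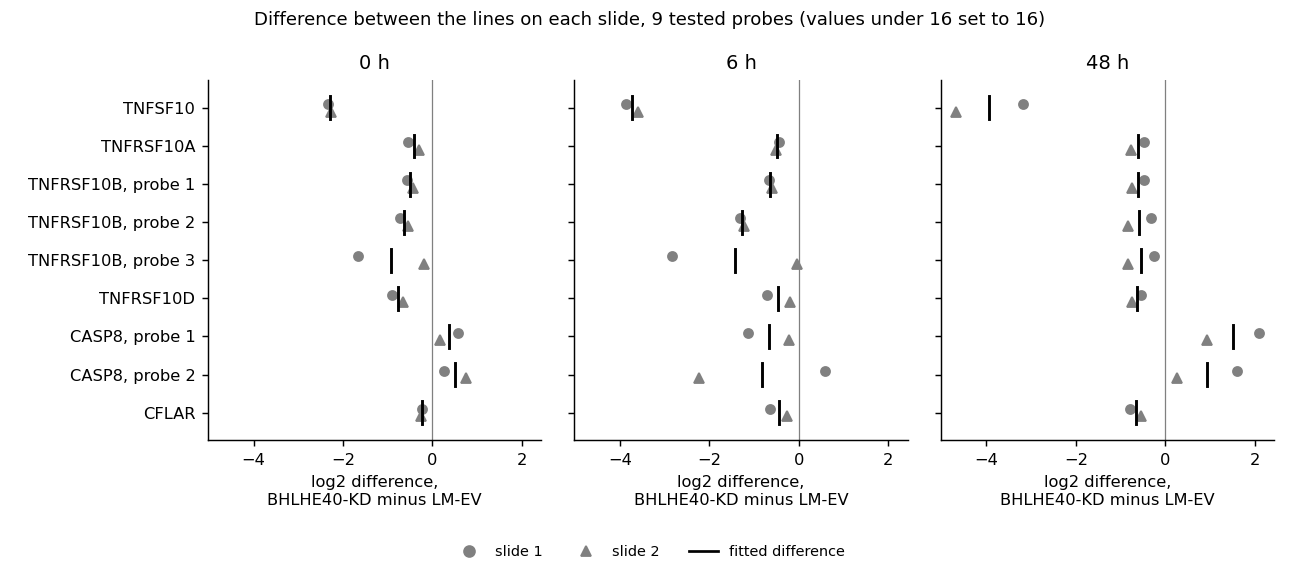
Log2 difference of BHLHE40-KD minus LM-EV (x axis) for the 9 tested member probes (y axis, probes of a gene numbered by brightness) at 0 h, 6 h and 48 h; circles are slide 1, triangles slide 2 and bars the fitted difference. TNFSF10 lies at -2.30, -3.73 and -3.94 with signals set to a floor of 16, TNFRSF10A, TNFRSF10B, TNFRSF10D and CFLAR lie between -1.43 and -0.24, and the CASP8 probes are above 0 at 0 h and 48 h.

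In hypoxia, few member probes passed the threshold within a line. In BHLHE40-KD cells, where TNFSF10 is left out of the count, 1 of 8 did so at 6 h and 1 of 8 at 48 h, TNFRSF10D higher both times, beside 4.01% and 4.04% of all tested probes. With the floor of 64 the second CASP8 probe passed as well at 6 h and the second TNFRSF10B probe at 48 h. In LM-EV cells 0 of 9 passed at 6 h and 0 of 9 at 48 h, beside 0.428% and 0.945% of all tested probes. An unadjusted p under 0.05 was found for 4 of 9 at each time, beside 2808 and 3287 of all 16819 tested probes (limma). The median log2 change of the 8 probes other than TNFSF10 was -0.13 and 0.10 at 6 h and 48 h in BHLHE40-KD cells and 0.01 and 0.03 in LM-EV cells, beside medians over all tested probes of -0.01 and -0.03 in BHLHE40-KD cells and -0.01 and -0.02 in LM-EV cells. The comparisons at 6 h and 48 h share the 0 h arrays of their line.

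Whether hypoxia acted differently in the 2 lines was tested as an interaction. Of the 8 member probes other than TNFSF10, 0 passed at 6 h and 0 at 48 h, beside 0.0238% and 0.0178% of all tested probes. An unadjusted p under 0.05 was found for 1 and 0 of the 8, beside 975 and 1059 of all 16819 tested probes (limma). The 1 probe was the second of TNFRSF10B, whose change at 6 h was 0.21 in BHLHE40-KD cells and 0.85 in LM-EV cells, a difference of -0.64 (SE 0.22, adjusted p = 0.763). That TNFRSF10D passed in BHLHE40-KD and not in LM-EV cells is not shown to be a difference between the lines, since its 6 h interaction of 0.32 (SE 0.26, adjusted p = 0.927) and its 48 h interaction of 0.14 (SE 0.26, adjusted p = 0.95) did not pass.

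**Figure D3:**
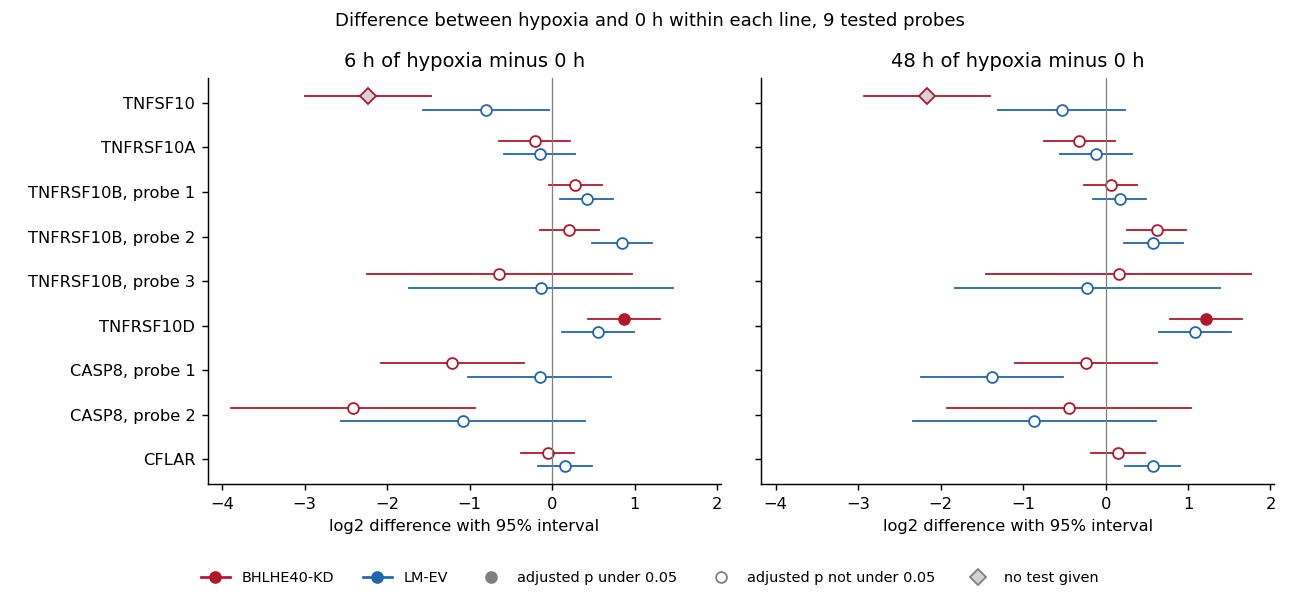
Log2 difference of 6 h (left) and 48 h (right) of hypoxia minus 0 h (x axis) with 95% intervals for the 9 tested member probes (y axis), BHLHE40-KD in red above LM-EV in blue; filled circles passed an adjusted p of 0.05, open ones did not, and diamonds mark TNFSF10 in BHLHE40-KD cells, given without a test. TNFRSF10D lies above 0 in both lines at both times, at 0.87 and 1.22 in BHLHE40-KD cells and 0.56 and 1.08 in LM-EV cells.

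Transcripts of the machinery below the death receptors passed the threshold for FADD, TNFAIP3 and XIAP. Of 31 genes listed as extrinsic apoptosis machinery, 25 had a probe with their symbol and 20 were tested. In hypoxia 1 of the 20 did so, FADD, the adaptor of DR4, DR5 and FAS, at 6 h in BHLHE40-KD cells. In that comparison 4.01% of all tested probes passed. FADD fell to a mean signal of 1710, against 2900 at 0 h (log2 -0.76, SE 0.13, adjusted p = 0.0259, limma). Its signals at 6 h were 1768 and 1649 in BHLHE40-KD cells, below the 2347 and 1988 in LM-EV cells. In LM-EV cells FADD had 2987 and 3024 at 0 h and was thus also lower at 6 h, but that change did not pass. As an interaction with the line, 0 of the 20 passed at 6 h. Only 0.0238% of all tested probes did, so this count cannot show whether the lines responded alike. TNFAIP3, known as A20, a ubiquitin-editing inhibitor of NF-κB signaling, was lower in BHLHE40-KD cells at 0 h (501 against 1310, log2 -1.40, SE 0.23, adjusted p = 0.00877) and at 6 h (738 against 1380, log2 -0.94, adjusted p = 0.0323), set against LM-EV cells. XIAP, an inhibitor of effector caspases, was higher in BHLHE40-KD cells at 48 h (330 against 194, log2 0.80, SE 0.20, adjusted p = 0.0368). Between the lines 1 of the 20 passed at each time, beside 15.9%, 16.7% and 14.8% of all tested probes. Their median was 0.03, -0.05 and -0.16 at 0 h, 6 h and 48 h, beside 0.01, 0.01 and 0.02 over all tested probes.

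Among 13 other death ligands and death receptors, 6 were tested, and a pair of secreted decoys passed the threshold in hypoxia. At 48 h 1 of the 6 passed higher and 1 lower in BHLHE40-KD cells, beside 4.04% of all tested probes. In LM-EV cells 1 passed lower at 48 h, beside 0.945%. TNFRSF11B, osteoprotegerin, a secreted decoy that binds TRAIL as well as RANKL, had signals of 265 and 157 at 0 h, 214 and 144 at 6 h and 68.2 and 52.1 at 48 h in BHLHE40-KD cells. In LM-EV cells they were 326 and 218 at 0 h, 148 and 142 at 6 h and 92.7 and 80.8 at 48 h. It fell at 48 h in both lines, with a log2 difference of -1.78 in BHLHE40-KD cells (SE 0.18, adjusted p = 0.0096) and of -1.62 in LM-EV cells (SE 0.18, adjusted p = 0.0244). TNFRSF6B, or DcR3, a secreted decoy for FASLG, rose at 48 h in BHLHE40-KD cells to 491 and 616, against 118 and 116 at 0 h (log2 2.23, SE 0.43, adjusted p = 0.0383). In LM-EV cells TNFRSF6B had 131 and 217 at 48 h, against 26.7 (not detected) and 88.1 at 0 h, and at 48 h it was higher in BHLHE40-KD cells (log2 1.71, SE 0.43, adjusted p = 0.0375). Without the slide term the call of TNFRSF11B in LM-EV cells (adjusted p = 0.0737) and both calls of TNFRSF6B (0.0633 and 0.0654) were lost.

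TNFRSF21, the death receptor DR6, was higher in BHLHE40-KD cells at all 3 times. It averaged 45500 in BHLHE40-KD cells and 18000 in LM-EV cells at 0 h (log2 1.34, SE 0.18, adjusted p = 0.00425), 36000 in BHLHE40-KD cells and 15100 in LM-EV cells at 6 h (log2 1.26, adjusted p = 0.00509), and 31700 in BHLHE40-KD cells and 17400 in LM-EV cells at 48 h (log2 0.85, adjusted p = 0.0222). The median log2 difference between the lines over the 6 genes was 0.13, 0.23 and -0.08, and no other gene of this list passed in any of the 7 comparisons. Between the lines 1, 1 and 2 of the 6 passed at 0 h, 6 h and 48 h, all higher. In either direction 15.9%, 16.7% and 14.8% of all tested probes passed.

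Of 28 other ligands and receptors of the TNF superfamily, 27 were on the array and 14 were tested. CD40, a costimulatory receptor, averaged 270 in BHLHE40-KD cells and 705 in LM-EV cells at 0 h (log2 -1.38, SE 0.30, adjusted p = 0.0232) and 255 in BHLHE40-KD cells and 779 in LM-EV cells at 6 h (log2 -1.67, adjusted p = 0.0122). TNFRSF19, an orphan receptor also called TROY, was lower in BHLHE40-KD cells at all 3 times (log2 -1.34, -1.50 and -1.31, SE 0.23 each, adjusted p = 0.0104, 0.0068 and 0.0119). TNFRSF1B, the second receptor of TNF, was not detected in BHLHE40-KD cells at 6 h and was at least 3.06-fold lower there than in LM-EV cells (adjusted p = 0.0208). TNFRSF14, the receptor HVEM, was lower in BHLHE40-KD cells at 48 h (log2 -0.54, adjusted p = 0.0328), and did not pass without the slide term (0.0575).

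The ligand TWEAK (TNFSF12) and its receptor Fn14 (TNFRSF12A) differed in direction. TNFRSF12A averaged 14200 in BHLHE40-KD cells and 7960 in LM-EV cells at 0 h (log2 0.83, SE 0.18, adjusted p = 0.0241) and 13100 in BHLHE40-KD cells and 8140 in LM-EV cells at 6 h (log2 0.70, adjusted p = 0.0408). TNFSF12 was lower in BHLHE40-KD cells at 6 h (343 against 619, log2 -0.87, SE 0.17, adjusted p = 0.0178). It rose in them at 48 h, to 671 against 341 at 0 h (log2 0.98, SE 0.17, adjusted p = 0.032). Of the 14 genes it was the sole one past the threshold in hypoxia, in a comparison where 4.04% of all tested probes passed. TNFSF9, the ligand of 4-1BB, was higher in BHLHE40-KD cells at 6 h (507 against 284, log2 0.87, adjusted p = 0.0306). Over the 14 genes the calls between the lines were 1 higher and 2 lower at 0 h, 2 higher and 5 lower at 6 h and 0 higher and 2 lower at 48 h, beside 15.9%, 16.7% and 14.8% of all tested probes. Without the slide term TNFSF12 (adjusted p = 0.0537 and 0.0808) and TNFSF9 (0.117) did not pass.

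Transcription regulators named for TRAIL and death receptor genes were listed as well, 22 in all, of which 19 were on the array and 17 tested. IRF1, an interferon-induced activator known to drive TNFSF10 transcription, averaged 248 at 6 h and 209 at 48 h in BHLHE40-KD cells, against 534 at 0 h (log2 -1.09 and -1.34, SE 0.18 each, adjusted p = 0.0249 and 0.0182). Compared with LM-EV cells, IRF1 was lower in BHLHE40-KD cells at 6 h (248 against 443, log2 -0.83, adjusted p = 0.0218) and at 48 h (209 against 337, log2 -0.68, adjusted p = 0.043). Its arrays at 0 h were 615 and 453 in BHLHE40-KD cells and 620 and 637 in LM-EV cells. In LM-EV cells IRF1 was also lower in hypoxia on both slides, at 478 and 409 at 6 h and 304 and 371 at 48 h. These changes did not pass, and as an interaction with the line 0 of the 17 regulators passed at either time. Only 0.0238% and 0.0178% of all tested probes passed these interactions at 6 h and 48 h. Such counts cannot show whether the lines responded alike. IRF7, another interferon regulatory factor, was lower in BHLHE40-KD cells at 6 h and 48 h (log2 -0.83 and -0.81, SE 0.21 each, adjusted p = 0.0356 and 0.0412). FOXO1, a forkhead factor, was lower in BHLHE40-KD cells at 48 h (256 against 465, log2 -0.87, adjusted p = 0.0171), and NFKB1, a subunit of NF-κB, at 6 h (5190 against 7580, log2 -0.55, adjusted p = 0.0474). Without the slide term IRF1 between the lines at 48 h (adjusted p = 0.053) and NFKB1 (0.0771) did not pass.

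DDIT3, YY1 and ATF3 of the same list were higher where they passed. DDIT3, or CHOP, which activates TNFRSF10B transcription under endoplasmic reticulum stress, was higher in BHLHE40-KD cells at 0 h (3000 against 1830, log2 0.70, SE 0.11, adjusted p = 0.00794) and at 48 h (2520 against 1760, log2 0.52, adjusted p = 0.023). Without the slide term neither DDIT3 difference passed (SE 0.34, adjusted p = 0.231 and 0.381). YY1, a zinc finger factor, was higher in them at 6 h (18100 against 12400, log2 0.54, adjusted p = 0.0199). ATF3, a stress-induced factor, rose at 6 h in both lines, to 1110 against 423 at 0 h in BHLHE40-KD cells (log2 1.36, SE 0.14, adjusted p = 0.00852) and to 837 against 425 at 0 h in LM-EV cells (log2 0.98, SE 0.14, adjusted p = 0.0476). The ATF3 call in LM-EV cells was lost without any 1 of the 12 arrays (adjusted p = 0.0678 to 0.286), without the slide term (0.267) and with no filter on dim probes (0.0573), and that in BHLHE40-KD cells without the slide term (0.0666). Between the lines 1 of the 17 regulators passed higher at each time, and 0, 3 and 3 passed lower. In either direction 15.9%, 16.7% and 14.8% of all tested probes passed. The median of the regulators was -0.09, -0.10 and -0.10 at 0 h, 6 h and 48 h, beside 0.01, 0.01 and 0.02 over all tested probes. Across the 4 lists, 34 of the 36 calls named in these paragraphs were lost when some 1 array was left out, the exceptions being those of TNFRSF21 at 0 h and 6 h, and none changed sign. With no filter on dim probes 18 of the 36 were lost. They include the calls of IRF7, TNFRSF12A, TNFRSF6B, XIAP and TNFRSF1B, and those of IRF1 except its 48 h change in BHLHE40-KD cells.

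**Figure D4:**
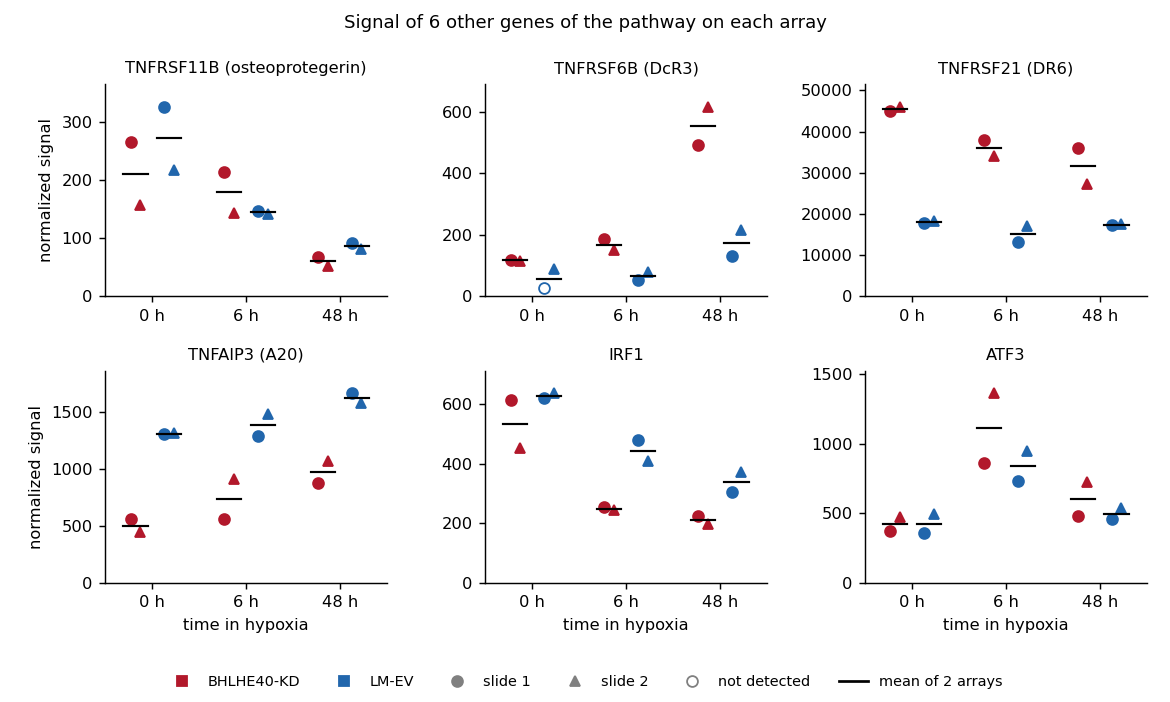
Normalized signal (y axis, arbitrary linear units) of 6 genes from the lists at 0 h, 6 h and 48 h of hypoxia (x axis), BHLHE40-KD in red left of LM-EV in blue; circles are slide 1, triangles slide 2, open symbols arrays without detection and bars the mean of 2 arrays. TNFRSF11B is lowest at 48 h in both lines, TNFRSF6B highest at 48 h in BHLHE40-KD cells, and TNFRSF21 lies between 27294 and 45956 on the BHLHE40-KD arrays and between 13238 and 18176 on those of LM-EV.

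The probes whose log2 signals followed TNFSF10 most closely over the 12 arrays, out of 16819, were those of SMARCD3 (Pearson r = 0.978), GCLC (0.976), CXXC5 (0.973), VASN (0.971) and RPL23AP53 (0.968). As a description, each was lower on every BHLHE40-KD array than on every LM-EV array. In BHLHE40-KD cells SMARCD3 ran from 2.4 to 46.8 and VASN from 26.1 to 76.1, so both reached below the level where detection began. CXXC5 ran from 533 to 1215 (median 711) in BHLHE40-KD and from 2324 to 3852 (median 2932) in LM-EV cells. GCLC, a subunit of the enzyme that starts glutathione synthesis, ran from 336 to 558 (median 376) in BHLHE40-KD and from 726 to 1208 (median 925) in LM-EV cells. The points share 2 lines and 2 slides, so such values follow from any gene that separates the lines in the same way.

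For the other members the nearest patterns were those of RMI1, ANKHD1-EIF4EBP3 and ARIH2 for TNFRSF10A (r = 0.954, 0.953 and 0.952), POLR1D, COL4A1 and NEK3 for the brightest TNFRSF10B probe (0.959, 0.956 and 0.954), SNCAIP, PKIA and IGF2BP2 for TNFRSF10D (0.978, 0.956 and 0.951), and FIG4, NR5A2 and MAPK15 for CFLAR (0.943, 0.942 and 0.942). For CASP8 they were PIGL, CEP19 and TP53I3 (0.862, 0.827 and 0.81), and for FAS, whose signal was mostly below detection, PIP4P2, ZFP91 and SNRNP200 (0.933, 0.919 and 0.916). None of these genes is shared between members.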

How the data were processed

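Total RNA of 12 cultures was hybridized to Illumina HT-12 arrays. The authors deposited normalized intensities, for which GenomeStudio subtracted background and quantile-normalized the arrays, and a table of bead-signal intensities with a detection p-value per probe, exported by the authors. No GenomeStudio version is given in the sources used here. Of the deposited bead-signal columns, 5 of slide 2 did not follow the normalized values (rank correlations of 0.816 to 0.904) and 3 of them were copies of slide 1 columns, so the normalized intensities were used. The deposited detection p-values followed them on all arrays (weakest rank correlation -0.983).

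Intensities under 16 (38.7% of values) were set to 16 and log2 was taken. Probes with 1 gene symbol in the platform annotation (30105 of 47302) and a group with both arrays at a detection p under 0.05 entered the fit (16819 probes), made with limma 3.58.1 (R 4.3.3), with the 6 groups and the slide as terms (5 residual degrees of freedom) and Benjamini-Hochberg adjustment within each of 9 contrasts. That a slide is 1 of the 2 experiments named in the methods was inferred from the layout. Deviations from the group means correlated by -0.02 to 0.28 (median 0.15) between arrays of a slide, over 0.1 in 12 of 15 pairs of groups. Signals are means ± SD, and SE is the standard error of a log2 difference. With 2 arrays per group an exact permutation test could not go below p = 0.333. The p-values measure only the spread between these arrays, whose number limits the precision.

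The members and the gene lists were chosen with earlier results of these data known. Named are all members, BHLHE40, cell markers, the list genes past the threshold in a hypoxia or line contrast (at most 6 per list and contrast, by size) and the genes with the highest correlation. The fit covers the members too, but their differences between the lines, and those of TNFSF10 that involve BHLHE40-KD cells, chose the set and are given as a description. Fits were tested on simulated data. Alternatives were no replicate block, a floor of 64, no filter on dim probes, 1 probe per gene, leaving out each array, bead signals of slide 1 normalized by neqc, and the study's rule of 1.5-fold in both experiments. Promoter windows came from RefSeq, GRCh38.p14.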

Additional observations from a re-analysis of the deposited data

How the results depend on the processing

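Counts of probes past the threshold over the whole array moved with the processing, and are given in the order LM-EV at 6 h and 48 h against 0 h, BHLHE40-KD at 6 h and 48 h against 0 h, BHLHE40-KD against LM-EV at 0 h, 6 h and 48 h, and the interactions at 6 h and 48 h. They were 72, 159, 675, 679, 2669, 2813, 2483, 4 and 3. Leaving out 1 array in turn gave 0 to 11, 0 to 89, 9 to 464, 17 to 485, 710 to 2515, 874 to 2834, 828 to 2445, 0 to 4 and 0 to 2. Without the replicate block, the first 4 were 0, 86, 281 and 346. A floor of 64 gave 283 and 537 in LM-EV cells, 1175 in BHLHE40-KD cells at 48 h and 0 and 7 interactions. With no filter on dim probes there were 104 in LM-EV cells at 48 h, 390 and 352 in BHLHE40-KD cells, 1814 between the lines at 6 h and 29 and 17 interactions, and with 1 probe per gene 0 interactions at 48 h.

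Of the 9 member probes, 0, 0, 2, 2, 4, 3 and 5 had an adjusted p under 0.05 in the first 7 comparisons, TNFSF10 included in each count, though its values in BHLHE40-KD cells and the members' differences between the lines are not read as tests. Without the replicate block it was 1 at 6 h in BHLHE40-KD cells and 2 between the lines at 0 h. The floor of 64 gave 1 and 1 in LM-EV cells. In BHLHE40-KD cells it kept 2 and 2, with CASP8 (ILMN_2377733) at 6 h and TNFRSF10B (ILMN_2331010) at 48 h in place of TNFSF10. With 1 probe per gene, 1 passed in LM-EV cells at 48 h. No filter gave 0 and 0 in BHLHE40-KD cells, and 1 and 3 between the lines at 0 h and 48 h. The 1.5-fold rule in both experiments gave 2 and 2 in LM-EV cells, 4 at 6 h in BHLHE40-KD cells and 2 and 2 between the lines at 0 h and 48 h. Without 1 array, 0 to 1 passed at 48 h in LM-EV cells, 0 to 1 and 0 to 2 in BHLHE40-KD cells, and 1 to 4 and 1 to 5 between the lines at 0 h and 48 h. The cause of these shifts was not tested, beyond the fewer or more arrays and probes each setting holds.

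No called value changed sign. Signs turned for values that had not passed: TNFRSF10B by ILMN_1699265 at 48 h in BHLHE40-KD cells (-0.09 to 0.22 with 1 array left out), by ILMN_1812915 at 6 h and 48 h in BHLHE40-KD cells (-1.59 to 0.31 and -0.61 to 0.93) and in LM-EV cells (-0.86 to 0.59 and -0.48 to 0.04, and 0.08 at 6 h with a floor of 64), CASP8 by ILMN_1673757 at 48 h in BHLHE40-KD (-0.59 to 0.11) and 6 h in LM-EV cells (-0.47 to 0.16), and CFLAR at 6 h in LM-EV cells (-0.01 to 0.32; in BHLHE40-KD cells -0.11 to 0.00). Between the lines signs turned for TNFRSF10B by ILMN_1812915 at 48 h (-1.15 to 0.06) and CASP8 by ILMN_2377733 at 6 h (-1.84 to 0.18, and 0.16 by the slide 1 bead signals). Those signals also turned TNFRSF10A at 48 h in BHLHE40-KD cells (0.07), and in LM-EV cells at 6 h TNFRSF10B by ILMN_1812915 (0.36) and CASP8 by ILMN_1673757 (0.02). TNFSF10 between the lines was -2.48 at 6 h and -2.75 at 48 h with a floor of 64, and -2.96 and -2.72 by the slide 1 bead signals. Of the 36 list calls, 13 were lost without the replicate block and 18 with no filter, while a floor of 64 and 1 probe per gene lost 0. Signals under about 50 limit what can be resolved for FAS, TNFRSF10C, CASP8 and TNFSF10 in BHLHE40-KD cells.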
